A study of Mus musculus with 6 samples.

Results

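Striatal projection neurons are the GABAergic output cells of the striatum, and 9 genes that mark them were followed across brains with and without Pofut1. The genes were Drd1, Pdyn and Tac1 for the direct pathway, Drd2, Penk and Adora2a for the indirect pathway, and Ppp1r1b, Rgs9 and Pde10a for both. They were taken by symbol, through every probe set to which the platform annotation gives 1 gene symbol. In this way 8 of the 9 genes were measured, by 16 of 45037 probe sets, out of 18193 genes in all. No probe set was assigned to Adora2a, the adenosine receptor typical of indirect pathway neurons, so it has no value here. All 8 measured genes were represented by their brightest probe set, and each of these exceeded 7.35 on the log2 scale, the median over all probe sets.

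Expression was measured on 6 one-colour arrays of brain RNA from C57/Bl6 mice aged 2 months, 2 arrays in each of 3 groups. In NestinCre control brains Pofut1 was wild type and a Nestin-Cre transgene was present, whose Cre recombinase acts in neural progenitors and their descendants. Flox control brains carried floxed Pofut1 on both chromosomes and no Cre. Knockout brains carried floxed Pofut1 on both chromosomes together with Nestin-Cre. Pofut1 encodes the enzyme that adds O-linked fucose to EGF-like repeats, a step that Notch receptors require. Cre acts in the Nestin lineage, which gives rise to neurons and to macroglia, while microglia arise elsewhere. Whether each RNA sample came from its own animal is not stated, so the p-values reflect only the spread among these 6 samples, and part of it may be technical.

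Direct pathway neurons project to the output nuclei of the basal ganglia, express the D1 dopamine receptor and release dynorphin and substance P. Indirect pathway neurons project to the external pallidum, express the D2 dopamine receptor and the adenosine receptor encoded by Adora2a and release enkephalin. Dopamine raises cyclic AMP through D1 and lowers it through D2, and both cell types carry the machinery that answers cyclic AMP. The comparisons ask whether these genes differed in brains that lack Pofut1 in the Nestin lineage, and whether the 2 control groups differed from each other. The samples are labelled brain, so the values are not of striatum alone. In such bulk tissue, the number of striatal neurons, RNA per neuron, signal from other cells and the regions sampled cannot be told apart.

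RefSeq promoter windows of build GRCm38.p6 were found for 6 of the 9 genes, 9 windows in all because Drd1, Pdyn and Pde10a have 2 start sites each. The 250 bases before the start are shown for the receptors that separate the pathways and for both peptide precursors of the direct pathway, at the first start site where there are 2. Capitals mark TGACG on either strand (CGTCA on the printed one), the core of the site bound by the cyclic AMP response factor CREB.
Drd1 (chr13:54055659-54055908, minus strand): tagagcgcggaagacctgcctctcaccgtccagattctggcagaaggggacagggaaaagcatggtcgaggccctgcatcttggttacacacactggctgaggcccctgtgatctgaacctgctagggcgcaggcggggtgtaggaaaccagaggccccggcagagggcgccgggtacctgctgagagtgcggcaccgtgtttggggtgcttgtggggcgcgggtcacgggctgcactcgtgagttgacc
Pdyn (chr2:129699939-129700188, minus strand): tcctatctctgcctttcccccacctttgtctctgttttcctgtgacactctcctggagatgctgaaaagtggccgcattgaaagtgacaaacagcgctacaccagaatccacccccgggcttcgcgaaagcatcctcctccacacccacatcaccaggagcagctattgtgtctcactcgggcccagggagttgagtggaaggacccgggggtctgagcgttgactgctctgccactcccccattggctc
Tac1 (chr6:7554811-7555060, plus strand): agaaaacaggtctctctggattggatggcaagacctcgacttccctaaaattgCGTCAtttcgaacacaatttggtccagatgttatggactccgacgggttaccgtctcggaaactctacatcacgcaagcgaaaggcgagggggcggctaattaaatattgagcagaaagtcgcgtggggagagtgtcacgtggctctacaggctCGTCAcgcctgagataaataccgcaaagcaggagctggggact
Drd2 (chr9:49340153-49340402, plus strand): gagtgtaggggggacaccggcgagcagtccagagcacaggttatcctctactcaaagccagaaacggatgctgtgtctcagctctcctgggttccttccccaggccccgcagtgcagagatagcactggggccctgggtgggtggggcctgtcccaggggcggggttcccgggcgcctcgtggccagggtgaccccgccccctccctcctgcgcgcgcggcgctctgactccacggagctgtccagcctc
Of the 9 windows, only that of Tac1 held TGACG, in 2 copies that end 38 and 192 bases before the start. Among 32851 windows of the same length, 17.8% held the motif. The match describes these letters only. The arrays measure no binding and give no value at these positions.

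Arrays were alike in level, with medians of 7.32 to 7.36 on the log2 scale. On the brightest Pofut1 probe set both knockout arrays, at 610.1 and 696, lay below all 4 controls, at 874 to 992, a log2 difference of -0.50 (SE 0.08, limma adjusted p = 0.211). Its position relative to the deleted part of the gene is not known here. By Xist and the Y-linked Eif2s3y, 4 arrays were from females and 2, NestinCre control replicate 2 and knockout replicate 1, from males. Over all 45037 probe sets limma passed 7 in knockout against both controls. Of the genes on the lists used here 1 was past the threshold, Rgs5, a pericyte marker, at 465 and 535 in knockout and 2118 to 2334 in the controls, 4.47-fold lower (log2 difference -2.16, SE 0.08, limma adjusted p = 0.0263).

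No difference between knockout and control brain passed limma's test for any of the 8 measured genes. For each dopamine receptor, peptide precursor and signalling gene at least 1 knockout array lay within the range of the 4 control arrays. Of the 16 probe sets, 0 passed at an adjusted p below 0.05, against 0.0155% of all probe sets. The smallest limma adjusted p among them was 0.381. At an unadjusted p below 0.05, 1 of 16 passed, against 11.1% of all probe sets. In none of the 16 did both knockout arrays lie on 1 side of all 4 controls, whereas 8.77% of all probe sets were higher in both knockout arrays and 9.19% lower.

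**Figure D1:**
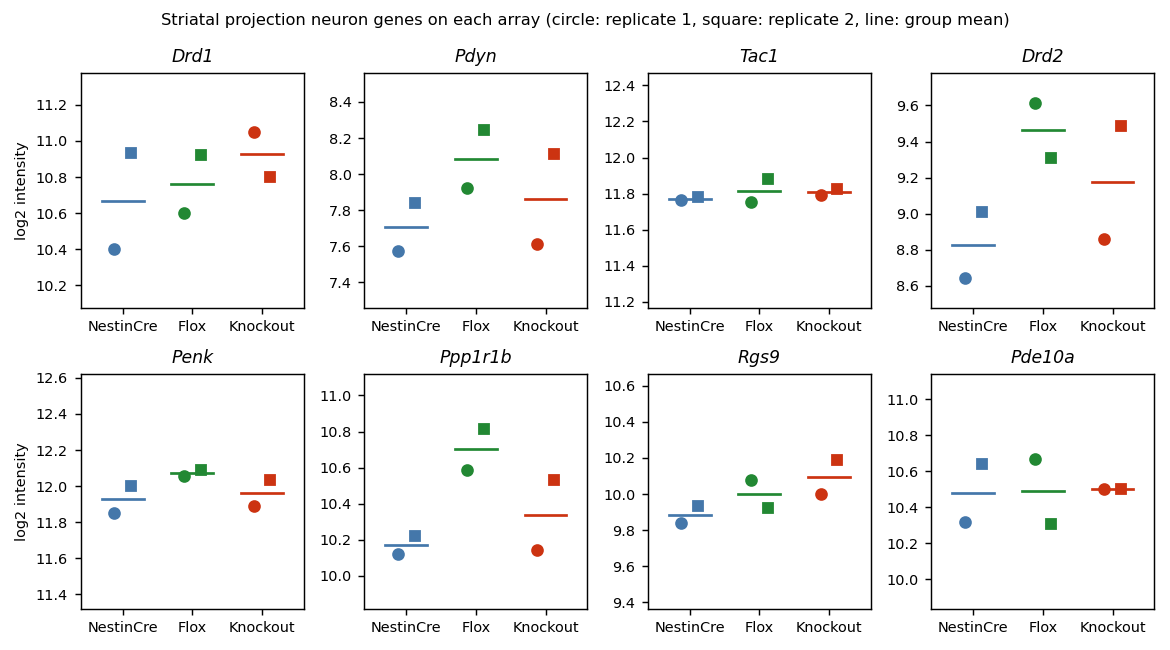
Log2 intensity of the brightest probe set of each of the 8 measured genes, with the groups on the x axis, a circle for replicate 1, a square for replicate 2 and a line at each group mean. Each y axis spans the same width. The knockout points overlap the control points in all 8 panels, and Drd2, Pdyn, Penk and Ppp1r1b have both Flox control points above both NestinCre control points.

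Among the direct pathway genes, Drd1, the D1 receptor that couples dopamine to cyclic AMP production, had intensities of 1352 and 1954 in NestinCre control, 1554 and 1939 in Flox control and 2120.0 and 1784 in knockout. The highest value was knockout replicate 1 and the lowest NestinCre control replicate 1, and the groups overlapped. Knockout stood 0.21 above both controls on the log2 scale (SE 0.19, limma adjusted p = 0.774), with a 95% interval from -0.28 to 0.70, or up to 1.62-fold. The second Drd1 probe set differed by 0.08 (SE 0.12). Its knockout arrays, at 1310.5 and 1335, sat within the control range of 1079.5 to 1435.

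Pdyn, the precursor of dynorphin, was the dimmest of the brightest probe sets. Its intensities were 190.4 and 229 in NestinCre control, 242 and 303 in Flox control and 195 and 276 in knockout. The knockout arrays lay apart from each other, 1 beside NestinCre control and 1 between the 2 Flox control arrays. The log2 difference from both controls was -0.04 (SE 0.18, limma adjusted p = 0.978).

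Tac1, the precursor of substance P and neurokinin A, varied least. It measured 3477 and 3519 in NestinCre control, 3450.4 and 3773 in Flox control and 3552 and 3626 in knockout. The highest array was 1.09 times the lowest. The log2 difference of knockout from both controls was 0.01 (SE 0.06, limma adjusted p = 0.968), and its 95% interval, -0.13 to 0.16, was the narrowest of the 8 genes. A second, dim Tac1 probe set, at 44.6 to 65, stood 0.27 higher in knockout (SE 0.11, limma adjusted p = 0.473). Against Flox control both knockout arrays of this dim probe set were higher, but knockout replicate 1 lay level with NestinCre control replicate 2.

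Among the indirect pathway genes, Drd2, the D2 receptor that lowers cyclic AMP, varied most between arrays. Its intensities were 399.5 and 516 in NestinCre control, 784 and 635 in Flox control and 464 and 718 in knockout. The highest array, Flox control replicate 1, was 1.96 times the lowest, NestinCre control replicate 1. The 2 knockout arrays differed by 0.63 on the log2 scale, which is more than the 0.37 between the NestinCre control arrays. Against both controls together the difference was 0.03 (SE 0.22, limma adjusted p = 0.986), with a 95% interval from -0.54 to 0.60. It was 0.35 (SE 0.26) against NestinCre control and -0.29 (SE 0.26) against Flox control.

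Penk, the precursor of the enkephalins, measured 3699 and 4104 in NestinCre control, 4255 and 4354 in Flox control and 3795 and 4193 in knockout. Both knockout arrays lay below both Flox control arrays, replicate 1 between the NestinCre control arrays and replicate 2 above them. The log2 difference was -0.04 against both controls (SE 0.07, limma adjusted p = 0.918), with a 95% interval from -0.22 to 0.15.

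Of the genes shared by both pathways, Ppp1r1b encodes DARPP-32, a phosphatase inhibitor switched on by cyclic AMP signalling. It measured 1113 and 1195 in NestinCre control, 1540 and 1802 in Flox control and 1131 and 1479 in knockout. Both knockout arrays lay below both Flox control arrays, and knockout replicate 1 lay between the NestinCre control arrays. The log2 difference was -0.10 against both controls (SE 0.13, limma adjusted p = 0.868) and -0.37 against Flox control alone (SE 0.15, limma adjusted p = 0.344).

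Rgs9, whose striatal isoform shortens signalling through G proteins downstream of the D2 receptor, measured 915 and 978 in NestinCre control, 1082 and 970.3 in Flox control and 1025 and 1168 in knockout. Both knockout arrays were above both NestinCre control arrays, and Flox control replicate 1 lay between the knockout arrays. The log2 difference from both controls was 0.15 (SE 0.08, limma adjusted p = 0.594). Pde10a, a phosphodiesterase that breaks down cyclic AMP and cyclic GMP, measured 1277 and 1597 in NestinCre control, 1627 and 1267 in Flox control and 1448.0 and 1449 in knockout. The knockout arrays fell in the middle of both control groups, with a log2 difference of 0.02 (SE 0.14, limma adjusted p = 0.988).

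Over the 8 genes, 5 were above 0 and 3 below in knockout against both controls, where 40.7% of all genes were above 0. The median was 0.02 for the 8 genes and -0.02 for all genes, and single genes ran from -0.10 to 0.21. The precision differed between genes, with standard errors from 0.06 to 0.22. The 95% intervals together reached down to 1.46-fold lower, for Drd2, and up to 1.62-fold higher, for Drd1, so differences inside these intervals could not be told from 0 with 2 arrays a group.

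**Figure D2:**
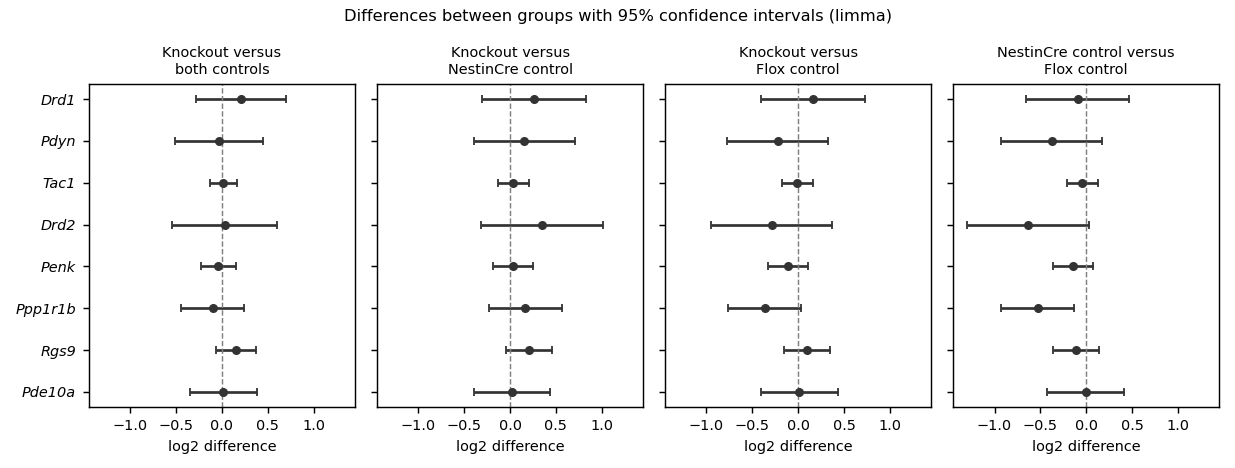
Log2 difference of each gene in the 4 comparisons, brightest probe set, with 95% confidence intervals from limma over all 6 arrays and a dashed line at 0. Every interval includes 0 except that of Ppp1r1b in NestinCre control against Flox control, -0.93 to -0.13, whose adjusted p was 0.409.

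Against each control alone, the knockout differences had different signs. Against NestinCre control all 8 genes were above 0, with a median of 0.16 (all genes -0.0019, 49.1% above 0) and the largest differences for Drd2 (0.35), Drd1 (0.26) and Rgs9 (0.21). Of the 16 probe sets, 0 passed, as did 0% of all probe sets by limma's adjusted p. At an unadjusted p below 0.05, 1 of 16 passed, against 5.81%. Tac1 and Rgs9 had both knockout arrays above both NestinCre control arrays, which held for 16% of all genes. Over the 16 probe sets both knockout arrays lay higher in 2 and lower in 2. The lower ones were the second brightest Rgs9 probe set (-0.14, SE 0.10) and a dim Pde10a probe set (-0.35, SE 0.08). The shared direction of the 8 genes rested on single arrays. Without NestinCre control replicate 1 the 8 genes split 5 above and 3 below, and without knockout replicate 2 again 5 above and 3 below. The median then fell to 0.02 in both cases. Within females, with 1 array in each group, all 8 genes were higher in knockout, by 0.06 to 0.85 on the log2 scale. Within males, again with 1 array in each group, 3 were higher and 5 lower, from -0.23 to 0.12. The female pair was NestinCre control replicate 1 and knockout replicate 2, the same 2 arrays on which the shared direction rested. Sex therefore cannot be told apart from these single arrays, and the difference between the sexes was not tested.

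Against Flox control 3 genes were above 0 and 5 below, where 62.6% of all genes were below, with a median of -0.06 (all genes -0.04). The lowest values were those of Ppp1r1b (-0.37), Drd2 (-0.29, SE 0.26) and Pdyn (-0.22, SE 0.21). For Penk and Ppp1r1b both knockout arrays lay below both Flox control arrays, as they did in 30.3% of all genes. Over the 16 probe sets 9 were above 0 and 7 below, and both knockout arrays lay higher in 4 and lower in 2. The higher ones were dimmer probe sets of genes with several, Tac1 (0.32), Rgs9 (0.23) and Pde10a (0.14 and 0.36). Of the 16 probe sets, 0 passed, against 0.00444% of all, and 0 had an unadjusted p below 0.05, against 15.9%. Without knockout replicate 1 the split of the 8 genes turned to 6 above and 2 below.

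The 2 control groups, which differ in Cre and in the floxed alleles, held the largest differences of the 4 comparisons, with none past the threshold. All 8 genes were lower in NestinCre control than in Flox control, where 64.2% of all genes were lower. Their median was -0.13 against -0.04 for all genes. With quantile normalization repeated, Pde10a turned to 0.02 and 7 of 8 were lower. For Drd2, Penk, Pdyn and Ppp1r1b both NestinCre control arrays lay below both Flox control arrays, in 4 of 8 genes against 30.4% of all. Ppp1r1b was 1.44-fold lower (log2 difference -0.53, SE 0.15, limma adjusted p = 0.409). Drd2 was 1.55-fold lower (-0.64, SE 0.26, limma adjusted p = 0.493). Pdyn differed by -0.38 (SE 0.21, limma adjusted p = 0.605) and Penk by -0.14 (SE 0.08, limma adjusted p = 0.612). Of the 16 probe sets, 0 passed by limma's adjusted p, against 0% of all, and 3 had an unadjusted p below 0.05, against 10.4%. Those 3 were Ppp1r1b and 1 dimmer probe set each of Rgs9 and Pde10a. Without NestinCre control replicate 1, and likewise without Flox control replicate 2, 6 of the 8 genes were lower.

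Most genes of several other lists also lay below 0 in NestinCre control against Flox control, as did 64.2% of all genes. All 7 of an olfactory bulb list were below 0 (median -0.12), all 7 of a microglial list (-0.18), 6 of 7 brainstem genes (-0.22) and 5 of 6 endothelial and pericyte genes (-0.18), whereas 3 of 7 cortex genes were below 0 (0.0016). In each of these 5 lists 0 genes passed by limma's adjusted p. In turn 2, 0, 2, 1 and 0 had an unadjusted p below 0.05, against 10.4% of all probe sets. Whether the striatal genes differ from these lists was not tested. Both Flox control arrays were from females. All 6 genes of a pituitary list (Gh, Prl, Pomc, Cga, Tshb and Lhb) were measured, none at 0, with a summed intensity of 1002 to 2235 in Flox control, 551 to 635 in NestinCre control and 641 to 717 in knockout. The pituitary list had 5 of 6 genes below 0 between the controls, against 64.2% of all genes. Of the 6, 0 passed limma's adjusted threshold and 4 had an unadjusted p below 0.05, against 10.4% of all probe sets. The part of sex and of these lists in the striatal gene values was not tested. With sex as a covariate, all 8 genes were lower in NestinCre control. The sex term of that fit rests on the only male arrays, NestinCre control replicate 2 and knockout replicate 1, so it cannot settle the part of sex.

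Array by array, NestinCre control replicate 1 was the lowest of the 6 for 6 of the 8 genes, and for all 8 it lay below the gene's own mean. Its average over the 8 genes was -0.25 on the log2 scale. Knockout replicate 2 lay above the mean for all 8, with an average of 0.12, whereas knockout replicate 1 lay below it for 5 and averaged -0.08. Flox control replicates 1 and 2 averaged 0.10 and 0.12, and NestinCre control replicate 2 averaged -0.02. Genes expressed by neurons in general, such as Snap25 and Syt1, stayed between -0.04 and 0.05 on average across the arrays.

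**Figure D3:**
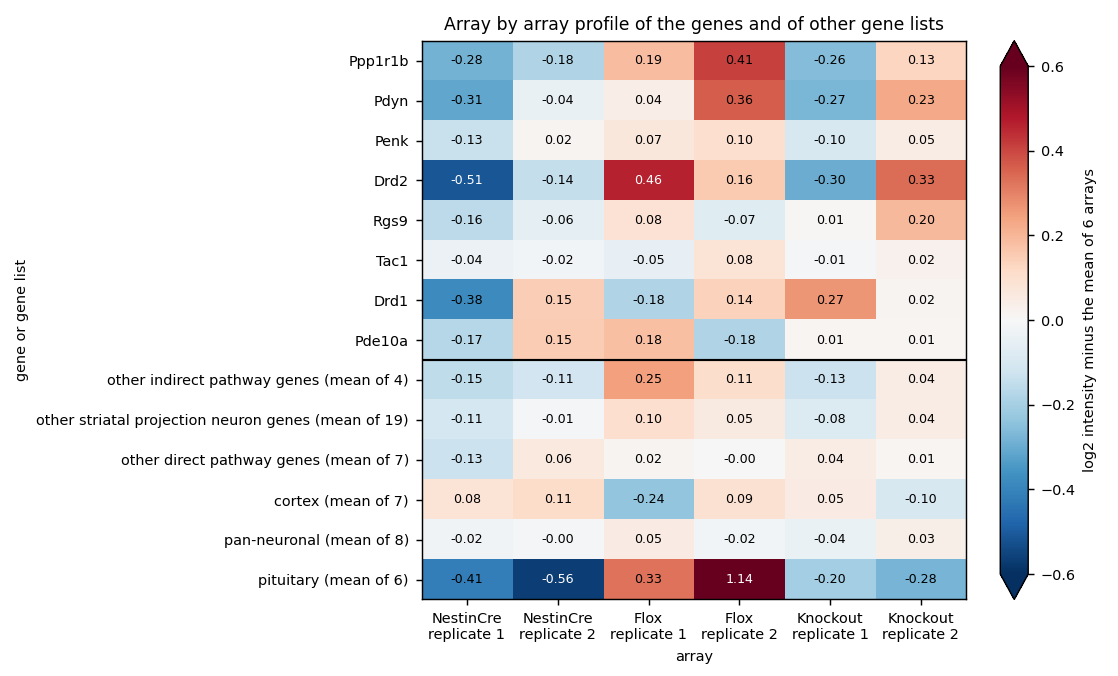
Log2 intensity of each gene minus its mean over 6 arrays, by array, above the black line, and the mean of the same quantity over the measured genes of other lists below it. For Ppp1r1b, Pdyn, Penk and Drd2, NestinCre control replicate 1 and knockout replicate 1 lie below the gene's mean. Both Flox control arrays and knockout replicate 2 lie above it. The pituitary value of 1.14 on Flox control replicate 2 exceeds the colour scale, which stops at 0.6.

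How closely the genes varied together ran over a wide range. Ppp1r1b and Pdyn had a Pearson correlation of 0.93 over the 6 arrays, Pdyn and Penk 0.93, Ppp1r1b and Penk 0.90, Drd2 and Penk 0.88, Drd2 and Ppp1r1b 0.82, Drd2 and Pdyn 0.78, Drd2 and Rgs9 0.76, Pdyn and Tac1 0.74 and Ppp1r1b and Tac1 0.64. The values of Drd1 were lower, with 0.52 to Tac1, 0.09 to Drd2, 0.11 to Ppp1r1b and 0.27 to Pdyn. Tac1 and Pde10a had the lowest correlation, -0.55. Of the 28 pairs, 25 were above 0, with a median of 0.42. These are descriptions over 6 arrays that share processing and include the group differences given above.

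Among 1865 other genes above the median brightness and with an SD of at least 0.2 between arrays, those most like the mean profile of the 8 genes were Dclk3 (r = 0.982), Wdr25 (0.965), Oxnad1 (0.962), Tamm41 (0.9501), Gpr6 (0.947) and Ankrd11 (0.945). The least alike were Slc7a3 (-0.94), Pou5f2 (-0.93) and Sinhcaf (-0.91). Gpr6, an orphan receptor of indirect pathway neurons, measured 343 and 431 in NestinCre control, 569.5 and 524 in Flox control and 395 and 495 in knockout, which is the order of groups seen for Drd2. In all, 4 of the 1865 genes reached a correlation of 0.95.

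Other genes of the same neurons were taken from lists. Of 20 further striatal projection neuron genes 19 were measured. In knockout against both controls 7 were above 0 and 12 below, with a median of -0.03, where 59.3% of all genes were below 0. None passed limma's adjusted threshold, and 1 had an unadjusted p below 0.05, against 11.1% of all probe sets. The smallest unadjusted p belonged to Rasd2 (Rhes), a striatal GTP-binding protein, at -0.24 (SE 0.09, limma adjusted p = 0.438). Also named by rank were Arpp21 (0.18), a cyclic AMP-regulated phosphoprotein, Gnal (-0.14), the G protein subunit that couples D1 to adenylyl cyclase, Syndig1l (-0.25), Strn (0.13) and Rarb (-0.14), a retinoic acid receptor. In NestinCre control against Flox control 16 of the 19 were below 0, with a median of -0.14, where 64.2% of all genes were below 0. Of the 19, 0 passed by limma's adjusted p and 2 had an unadjusted p below 0.05, against 10.4% of all probe sets. Rarb stood there at -0.41 (SE 0.14, limma adjusted p = 0.447).

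The 4 measured genes of 6 on a further indirect pathway list were Gpr6, Six3, Plxdc1 and Grik3. All 4 were below 0 in knockout against both controls (median -0.06) and in NestinCre control against Flox control (median -0.35). Of all genes, 59.3% and 64.2% were below 0 in these comparisons. In NestinCre control against Flox control Gpr6 differed by -0.51 (SE 0.16), Six3, a transcription factor of these neurons, by -0.37 (SE 0.13), and Plxdc1 by -0.32 (SE 0.10). For these 3 both NestinCre control arrays lay below both Flox control arrays, as in 30.4% of all genes. Their limma adjusted p lay between 0.422 and 0.453. Each of the 3 had an unadjusted p below 0.05, against 10.4% of all probe sets. The 7 genes of a further direct pathway list had medians of 0.04 and -0.03 in these comparisons. In knockout against both controls 4 were above 0 and 3 below, with 0 past limma's adjusted threshold. Of the 7, 2 had an unadjusted p below 0.05, Eya1 and Oprm1, against 11.1% of all probe sets. Both knockout arrays lay above all 4 controls for 3 genes, against 7.23% of all genes by their brightest probe set. They lay below for 2 genes, against 9.19% of all probe sets, a share that also counts the dimmer probe sets. In the same comparison Isl1 and Foxp2 stood at 0.17 and 0.13, Ebf1 at -0.17 and Eya1 at -0.33 (SE 0.11, limma adjusted p = 0.405). Oprm1, on a dim probe set, stood at 0.46 (SE 0.12). Slc35d3, a transporter family protein needed for D1 receptor at the cell surface, was at -0.36 in NestinCre control against Flox control (SE 0.12, limma adjusted p = 0.443). Whether the direct and indirect pathway lists differ from each other was not tested.

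Receptors for dopamine, adenosine, opioids and tachykinins gave 7 measured genes of 9, with 3 above 0 and 4 below in knockout against both controls. Of the 7, 0 passed limma's adjusted threshold and 2 had an unadjusted p below 0.05, against 11.1% of all probe sets. Oprk1, the kappa receptor on which dynorphin acts, measured 107 and 117 in NestinCre control, 103 and 97.2 in Flox control and 156 and 162 in knockout. Both knockout arrays lay above all 4 controls, as in 7.23% of all genes, with a log2 difference of 0.59 (SE 0.06, limma adjusted p = 0.124). This probe set was dim, with a mean of 6.92 on the log2 scale, and the other Oprk1 probe set differed by -0.09 (SE 0.05). Oprm1, the mu receptor, measured 136 and 148 in NestinCre control, 122 and 104 in Flox control and 195 and 155 in knockout on a dim probe set. Its difference was 0.46 (SE 0.12, limma adjusted p = 0.325). Of the 4 Oprm1 probe sets 3 were above 0, but those other than this one lay near 0, at 0.07 (SE 0.05), 0.05 (SE 0.06) and -0.03 (SE 0.06). The delta receptor Oprd1 stood at -0.12 and Drd4 at -0.15.

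Some lists for the surrounding cells and inputs had small medians in knockout against both controls. These were -0.01 for 7 striatal interneuron genes, -0.04 for 7 dopamine neuron genes, -0.03 for 5 neuropeptide processing genes and 0.0036 for 8 pan-neuronal genes. In each of the lists just named 0 genes passed by limma's adjusted p and 0 had an unadjusted p below 0.05. Of the cholinergic markers Chat was at 0.09 and Slc18a3 at -0.17, and of the interneuron peptides Npy was at -0.17 and Sst at -0.11. Other lists were less even. Of 6 astrocyte genes 2 were above 0 and 4 below, with a median of -0.06. None passed limma's adjusted threshold, and 4 had an unadjusted p below 0.05, against 11.1% of all probe sets. All 8 hippocampus genes (median -0.16) and 7 of 8 cerebellum genes (-0.09) were below 0, against 59.3% of all genes. Of these, 0 and 1 had an unadjusted p below 0.05. The 7 microglial genes were all above 0, where 40.7% of all genes were above 0, with a median of 0.19. Of the 7, 0 passed limma's adjusted threshold and 3 had an unadjusted p below 0.05, against 11.1% of all probe sets. The smallest adjusted p was that of Aif1, at 0.70 (SE 0.06, limma adjusted p = 0.0978). The immediate early genes, which dopamine signalling can induce in these neurons, were all 8 below 0, where 59.3% of all genes were below 0. Their median was -0.28, with 0 past limma's adjusted threshold and 1 at an unadjusted p below 0.05, against 11.1% of all probe sets. Their average on Flox control replicate 1 was 0.45 above their own mean, the highest of the 6 arrays.

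Where a gene had several probe sets, these did not always move together. Pde10a had 5. In knockout against both controls 4 were above 0, from 0.02 to 0.25, and the fourth brightest was at -0.21 (SE 0.07, unadjusted p = 0.0261, limma adjusted p = 0.381). This probe set was dim, with intensities of 141 and 133 in NestinCre control, 117 and 108 in Flox control and 112 and 103 in knockout. It stood apart in NestinCre control, so that it was 1.27-fold lower in knockout than there (-0.35, SE 0.08, limma adjusted p = 0.564) and 1.21-fold higher there than in Flox control (limma adjusted p = 0.397). The third brightest was not dim, at 413 and 542 in NestinCre control, 402 and 374 in Flox control and 512 and 482 in knockout. Both NestinCre control arrays lay above both Flox control arrays here too, by 0.29 on average (SE 0.14, limma adjusted p = 0.557). The brightest Pde10a probe set differed by -0.0078 between the controls, and the other two by -0.10 and -0.0079.

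Rgs9 had 3 probe sets. The brightest was at -0.11 in NestinCre control against Flox control (SE 0.10), while the second brightest, at 137 to 202, was at 0.37 (SE 0.10, limma adjusted p = 0.403), with both NestinCre control arrays above both Flox control arrays. The third, near 43 in every group, differed by -0.02. The places of these probe sets in the transcripts are not known here, and the differences between probe sets of a gene were not tested.

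**Figure D4:**
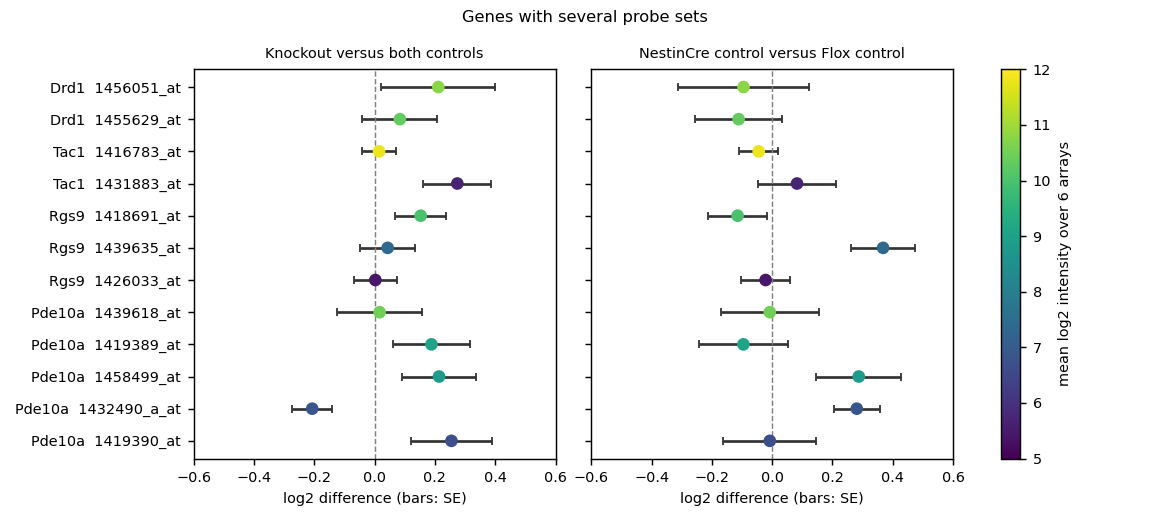
Log2 difference of every probe set of the 4 genes with more than 1, for knockout against both controls (left) and NestinCre control against Flox control (right), with bars of 1 SE and colour for the mean log2 intensity. In the right panel the third brightest and the fourth brightest Pde10a probe sets lie at 0.29 and 0.28 and the second brightest of Rgs9 at 0.37, away from the brightest probe set of the same gene.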

How the data were processed

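The authors deposited linear intensities, 1 per probe set and array, made with GCOS and RMA per the submitters' processing notes, which give no version, role or order. RMA evens out array distributions and compresses differences of dim probe sets. Software and filters beyond these names are unstated. The table held 45101 probe sets, of which 64 controls were left out. Names came from the platform annotation, with 34945 probe sets of 1 symbol, 932 of several and 9160 of none. Log2 was taken of each intensity, and limma 3.58.1 in R 4.3.3 fitted 3 group means over all 6 arrays, with 4.94 total degrees of freedom. Benjamini-Hochberg adjustment covered 45037 probe sets at a threshold of 0.05. The step was tested on simulated data. The members, gene lists, tests and naming rule were chosen with earlier results of these data known, so no p is given over a list. Named are all members and, from other lists, genes past the threshold in any comparison, or else some or all of those with the smallest p in knockout against both controls. The alternatives were repeated quantile normalization, median centring, filters on dim probe sets, eBayes with a trend, fits of the compared groups alone, a replicate block, 1 probe set per gene, controls kept, log2 of the value plus 16, sex as a covariate and each array left out. The number of arrays limits the precision.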

Additional observations from a re-analysis of the deposited data

How the results depend on the processing

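No member probe set passed limma's adjusted threshold in any comparison under any alternative. Of 568 values of the 8 genes recomputed, 534 kept their sign and 34 turned, 30 of them from a main value within 1 SE of 0, and the smallest limma adjusted p was 0.167. Repeated quantile normalization turned Tac1 against Flox control to 0.0098 and Pde10a between the controls to 0.024, and median centring turned Pde10a against Flox control to -0.012. Sex as a covariate turned Pde10a to -0.024 against both controls and -0.068 against Flox control, and Drd1 to -0.032 against Flox control. The cause was not tested.

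Leaving out 1 array leaves a group with 1, which is assumed to vary like the others. The median of the 8 genes against NestinCre control then ran from 0.021 to 0.24, and that between the controls from -0.29 to -0.068. Knockout against both controls ran from -0.29 to 0.34 for Drd2, -0.074 to 0.11 for Pde10a, -0.28 to 0.21 for Pdyn, -0.11 to 0.034 for Penk, -0.29 to 0.094 for Ppp1r1b and -0.018 to 0.047 for Tac1. Against NestinCre control it ran from -0.0074 to 0.52 for Drd1, -0.14 to 0.18 for Pde10a, -0.097 to 0.40 for Pdyn, -0.041 to 0.11 for Penk and -0.029 to 0.36 for Ppp1r1b. Against Flox control it ran from -0.60 to 0.026 for Drd2, -0.17 to 0.19 for Pde10a, -0.47 to 0.026 for Pdyn and -0.072 to 0.057 for Tac1. Between the controls it ran from -0.36 to 0.17 for Drd1, -0.19 to 0.17 for Pde10a and -0.11 to 0.020 for Tac1.

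Replicate numbers were not used as pairs in the main fit. Deviations of same-numbered arrays correlated at 0.19, -0.31 and -0.24 between the groups. With 2 arrays a group, and same-numbered arrays partly of different sex, these values cannot decide whether the samples were paired. With the replicate number as a block, 0 of the 8 genes passed in each comparison, and their smallest limma adjusted p between the controls was 0.508. The fit on the compared groups alone does not exist for knockout against both controls, which uses all 6 arrays.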
